A study of Mus musculus with 10 samples.

Results

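Olfm4 encodes olfactomedin 4, a secreted glycoprotein with an olfactomedin domain. In the mouse small intestine it marks the columnar stem cells at the crypt base, where its transcription depends on Notch signalling, and NF-kB signalling can induce it. Outside the epithelium a subset of neutrophils makes it, and in mouse colon it is not a stem cell marker. Olfm4 is 1 of 31053 genes in the count matrices. It was chosen because its counts in the stem and transit-amplifying (TA) cells of the Hyper-organoids had been seen to differ from those of the other organoids. Its detection in cells positive for the stem cell marker Lgr5 was also part of the choice. Its own levels, and its tie to Lgr5 from cell to cell, are therefore given below as a description, with no test. Tests were run only on other genes.

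The data were 10 droplet-based single-cell RNA-sequencing libraries, in which each captured transcript is counted by its unique molecular identifier (UMI). Organoids were grown in Matrigel from proximal small-intestinal crypts of 6- to 12-week-old mice. Medium for the 3 libraries of ENR-organoids contained EGF, Noggin and R-Spondin 1. For the 3 of Hyper-organoids it contained LDN193189 (a BMP receptor inhibitor), GSK-3 Inhibitor XV, Pexmetinib, VPA (valproic acid, a histone deacetylase inhibitor), EPZ6438 (which blocks EZH2, a histone methyltransferase), EGF, R-Spondin 1 conditioned medium and FGF2. -VE-organoids (2 libraries) were grown in the Hyper medium without VPA and EPZ6438, so that Hyper against -VE differs in those 2 agents. Replicate 1 of each group was a library at passage 2 for ENR-organoids and passage 1 for -VE- and Hyper-organoids, and replicate 2 was at passage 7 for ENR-organoids and passage 6 for the others. In both of these series, the -VE- and Hyper-organoids were derived from ENR-organoids. Replicate 3 (ENR and Hyper only) was at passage 3, from primary crypts. A further library was made from colonic crypts of normal mice and another from colonic crypts of mice given dextran sulfate sodium (DSS), an epithelial toxin that causes colitis, given in drinking water to 8-week-old females. The labels give neither the strain, sex nor number of animals behind an organoid library, so the spread between replicates is the spread between cultures, which may share animals.

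The organoid libraries held 1983 to 4293 kept cells with a median of 38174 to 50652 UMIs per cell. Any pair of libraries shared at most 5 cell barcodes, and at most 0.207% of those of the smaller library. Cell classes were those annotated by the authors, who used Olfm4 itself as a stem cell marker beside Lgr5, Ascl2 and Cd44, so the order of Olfm4 levels between classes is partly set by the annotation. All libraries of replicates 1 and 2 held cells with transcripts of Y-linked genes beside cells with Xist, while replicate 3 held almost only Xist-positive cells, and the Olfm4 values of these cells are given separately below.

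Olfm4 (ENSMUSG00000022026) lies on the plus strand at chr14:79984081-80023139 of the mm10 build. The annotation gives 1 non-coding transcript that starts at 79984081 and 2 protein-coding ones that start at 80000251 and 80000302. The 5′ part of the gene overlaps the lincRNA Gm6999 on the same strand, so reads in that part could not be told apart by position. Gm6999 ends at 80006326, and the Olfm4 transcripts end at 80021139, 80021930 and 80023139. The libraries were 3′ libraries, which mainly read the 3′ ends of transcripts. Because the gene is known as a Notch target that NF-kB can induce, the 250 bases before the RefSeq start site (chr14:80000052-80000301) were searched on both strands for a short form of the NF-kB motif (GGG, any 5 bases, CC), TGGGAA (the core of the RBPJ motif) and CTTTGA (the core of the TCF/LEF motif). The promoter stretch chr14:80000052-80000280 (RefSeq, GRCm38.p6, plus strand) is shown with the run that matched the NF-kB motif in capitals.
Olfm4 promoter: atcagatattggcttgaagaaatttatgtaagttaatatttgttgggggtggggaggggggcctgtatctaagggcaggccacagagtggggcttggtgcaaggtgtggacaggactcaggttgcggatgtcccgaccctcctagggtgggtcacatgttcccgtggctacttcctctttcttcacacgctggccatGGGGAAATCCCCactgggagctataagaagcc
The capitals hold 4 overlapping matches of the NF-kB motif, the outermost starting 53 bases upstream of the start site, and 45.8% of 32851 promoter windows of this length held such a match. TGGGAA occurred at 1 place, 12 bases upstream and beyond the stretch shown (21.6% of windows held a match). CTTTGA did not occur (13.8% of windows held it). These matches describe letters in the window and say nothing of binding.

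In ENR-organoids Olfm4 was highest in stem cells, next highest in TA cells, and low in enterocytes. Levels are UMI counts summed over the cells of a class and scaled to 1000000 UMIs of those cells (CPM). Stem cells held 3738, 4336 and 2977 CPM in ENR-organoids 1, 2 and 3 (mean 3684 ± 681, SD, n = 3), and TA cells held 2381, 2486 and 1631 CPM (mean 2166 ± 467, SD, n = 3). Every stem cell value lay above every TA value, and every TA value lay above those of the next class.

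Below the TA cells, the ENR classes overlapped with their neighbours in the order. Paneth cells, the antimicrobial secretory cells of the crypt, had 154 to 727 CPM from 126 cells in all, and enterocyte progenitors had 285 to 471 CPM. Goblet cells, which secrete mucus, had 281 to 318 CPM, and hormone-producing enteroendocrine cells had 132 to 290 CPM. Enterocytes, the absorptive cells, held 43.0, 58.8 and 21.9 CPM, the lowest value of these classes in each library. Single cells carried much of the level in the small classes. In ENR-organoids 3, 1 cell held 112 of the 129 Olfm4 UMIs of the enteroendocrine cells, 1 held 237 of the 462 of the Paneth cells and 1 held 96 of the 200 of the enterocytes, and in ENR-organoids 2 1 Paneth cell held 371 of 679, so the order among these classes rests on few cells. Only 13 tuft cells were annotated in the ENR-organoids, with 4 Olfm4 UMIs between them.

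In -VE-organoids the stem cells held 2462 and 1768 CPM and the TA cells 2081 and 1390 CPM, so these classes overlapped. Both -VE stem cell values lay below the lowest ENR value. Over all kept cells the groups overlapped, at 1845 and 1267 CPM in -VE-organoids and 1768, 1724 and 990 CPM in ENR-organoids. Stem cells made up 24.3% to 28.2% of the kept cells of -VE-organoids and 9.75% to 14.7% of those of ENR-organoids, and TA cells 49.1% to 53.1% and 32.9% to 43.6%. The mean log2 difference between -VE- and ENR-organoids was 0.09 over all kept cells and -0.80 in stem cells alone. Taken within the 2 culture series that hold both media, as replicate block, the first value was -0.16, so its direction was not stable.

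Hyper-organoids held less Olfm4 than the other organoids in stem, TA, goblet and enteroendocrine cells, and their replicates spread widely. Their stem cells held 630 CPM in Hyper-organoids 1, 22.03 CPM in Hyper-organoids 2 and 36.5 CPM in Hyper-organoids 3. Their TA cells held 662, 23.2 and 41.9 CPM. The TA value was slightly above the stem cell value in each Hyper library, whereas the stem cell value was above the TA value in every ENR- and -VE-organoid library.

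**Figure D1:**
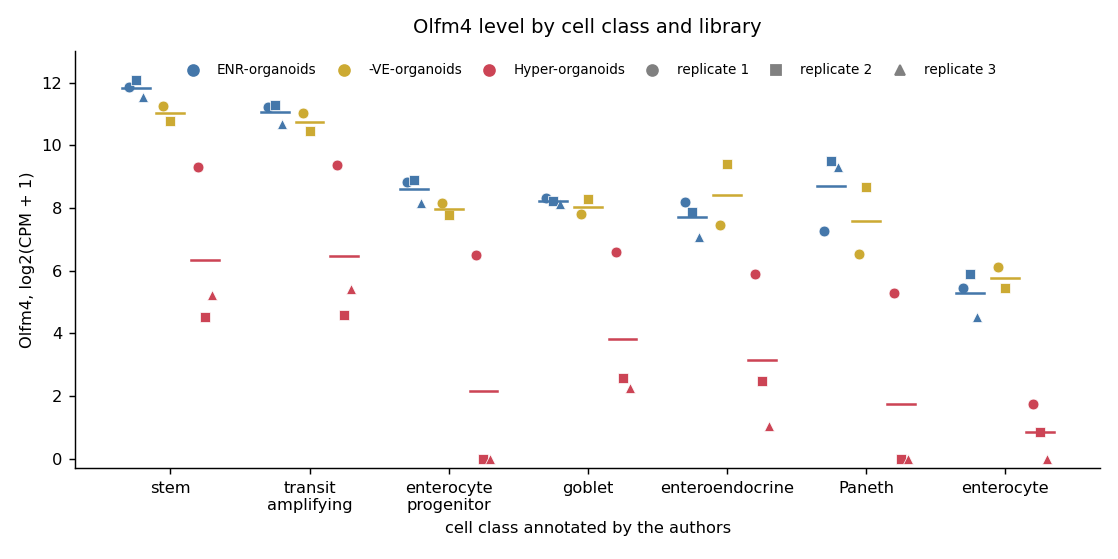
Olfm4 level on a log2(CPM + 1) axis for each organoid library, by the cell class the authors annotated. Each point is 1 library, colour gives the culture and shape the replicate, and bars are group means of the log2 values. Hyper-organoids 1 lie between the other cultures and Hyper-organoids 2 and 3 in stem and TA cells.

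Within a series, the stem cells of Hyper-organoids held 5.93-fold, 196.8-fold and 81.6-fold less Olfm4 than those of the ENR-organoids of the same replicate number. Against the -VE-organoids the values were 3.90-fold and 80.3-fold. In TA cells the values were 3.59-fold, 107-fold and 38.9-fold against ENR-organoids and 3.14-fold and 59.8-fold against -VE-organoids. No Hyper value overlapped an ENR or -VE value in either class.

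Over all kept cells, with the trimmed mean of M-values (TMM) scaling used for the tests below, the mean Hyper level lay 4.31 log2 units below ENR-organoids, or 19.8-fold lower, and 21.1-fold below -VE-organoids. The SD of the 3 Hyper values was 2.57 log2 units. Hyper-organoids 1 set that spread: without them, the level was 54.8-fold below ENR-organoids and 58.4-fold below -VE-organoids. Hyper-organoids 1 were the passage 1 culture, 3 the passage 3 culture and 2 the passage 6 culture, with 1 library each, so passage and culture cannot be told apart.

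In the goblet, enteroendocrine and revival stem cells of Hyper-organoids replicate 1 was again the highest, and the values of replicates 2 and 3 rest on few cells. Their goblet cells held 96.7, 5.03 and 3.803 CPM, and their enteroendocrine cells 58.4, 4.64 and 1.06 CPM. In replicate 2, 1 goblet cell held 25 of 32 UMIs and 1 enteroendocrine cell 9 of 10, and in replicate 3, 1 goblet cell held 14 of 18 and the enteroendocrine cells held 2 in all. Revival stem cells, the Clu-positive state seen in regenerating epithelium, were annotated in -VE- and Hyper-organoids only and held 116 and 84.9 CPM in -VE-organoids against 154, 1.504 and 1.32 CPM in Hyper-organoids. These last values come from 5, 14 and 26 cells with 41, 1 and 2 Olfm4 UMIs. Hyper-organoids had 14 Paneth cells, 8 enterocyte progenitors and 86 enterocytes in all, and these held 10, 13 and 3 Olfm4 UMIs.

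Per-cell counts show how many cells the Hyper levels came from. At least 1 Olfm4 UMI was held by 98.8%, 99.4% and 98.3% of ENR stem cells, 98.5% and 95.3% of -VE stem cells, and 88.0%, 13.9% and 19.0% of Hyper stem cells. In enterocytes of ENR-organoids, the class with the lowest Olfm4 level there, 53.7%, 55.3% and 22.6% of cells also held at least 1 UMI. Their median depths were 39062, 39847 and 32331 UMIs (stem cells 40398, 37817 and 31294). The source of the Olfm4 UMIs in enterocytes was not tested. To compare shares at equal depth, cells were also thinned at random to 10000 UMIs each, leaving out shallower cells.

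At that equal depth, 97.2%, 97.1% and 96.5% of ENR stem cells, 95.6% and 90.3% of -VE stem cells and 74.8%, 7.73% and 10.6% of Hyper stem cells held Olfm4. For TA cells the shares were 92.9%, 94.7% and 88.3%, then 91.4% and 84.8%, and 80.6%, 9.83% and 12.9%. The matching shares in enterocytes were 23.1%, 19.3% and 10.0% in ENR-organoids. The goblet cells of Hyper-organoids, with more cells than their enterocytes, gave 29.9%, 1.57% and 1.61%. Counting only cells with at least 3 Olfm4 UMIs, the shares were 56.2%, 2.94% and 4.24% of Hyper stem cells and 9.74%, 0.524% and 0.806% of Hyper goblet cells.

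The share of positive stem cells in each Hyper library thus lay above that of its own goblet cells. In Hyper-organoids 2 the Clopper-Pearson 95% intervals were 6.42% to 9.23% for stem and 0.325% to 4.52% for goblet cells, and in Hyper-organoids 3 they were 8.61% to 12.9% and 0.196% to 5.70%. These intervals cover counting error only.

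In Hyper-organoids 2 and 3, most of the remaining Olfm4 sat in few cells. The stem cells in the top 10% by Olfm4 counts held 95.02% and 92.4% of all stem cell Olfm4 UMIs there, against 37.2% in Hyper-organoids 1, 28.1%, 23.5% and 25.5% in ENR-organoids and 26.3% and 30.0% in -VE-organoids. The median ENR stem cell held 123, 158 and 91 Olfm4 UMIs, the median -VE stem cell 100 and 49, and the median Hyper stem cell 16, 0 and 0. In Hyper-organoids 1 the typical stem cell thus still held Olfm4, while in the other Hyper libraries it had no Olfm4 UMI. Of the stem cells of Hyper-organoids 1, 12.0% had no Olfm4 UMI and 12.9% had 1 to 2. In ENR-organoids, 0.631% to 1.75% of stem cells had none.

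Cells with 50 or more Olfm4 UMIs were 78.3%, 83.6% and 71.6% of ENR stem cells, 71.2% and 49.3% of -VE stem cells, and 19.4%, 0.135% and 0.572% of Hyper stem cells. The last 2 shares stand for 2 of 1481 and 5 of 874 cells. The highest stem cell count was 239 UMIs in Hyper-organoids 1, 70 in 2 and 105 in 3, so single Hyper cells reached the range of ENR stem cells.

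**Figure D2:**
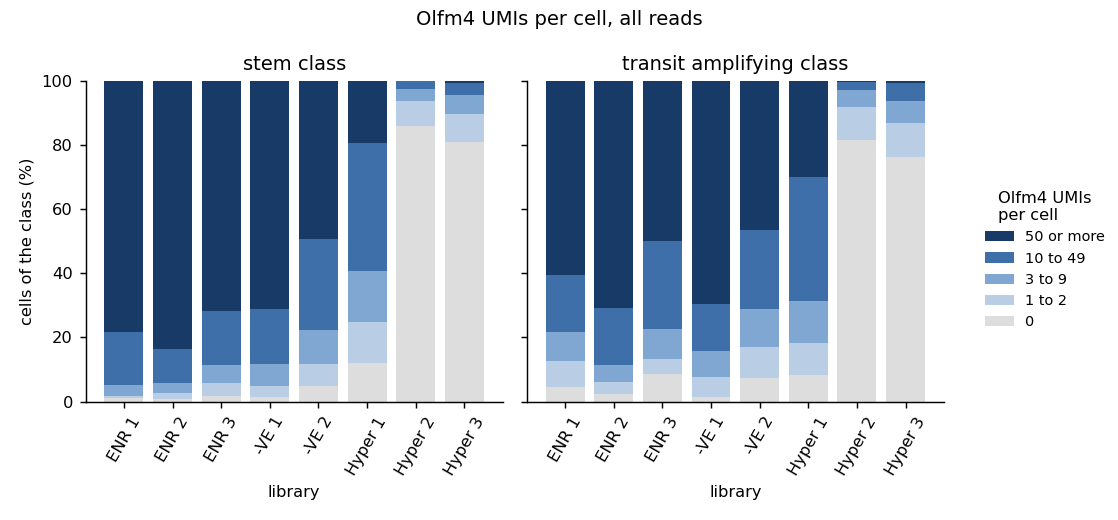
Share of stem (left) and TA (right) cells of each organoid library by the number of Olfm4 UMIs in the cell, at full depth. Each bar is 1 library and sums to 100%, and darker segments stand for more UMIs. Of Hyper-organoids 2 and 3, 86.1% and 81.0% of stem cells had no Olfm4 UMI.

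Lgr5, the receptor for R-Spondins and the defining marker of crypt base stem cells, did not follow Olfm4 in Hyper-organoids. At 10000 UMIs per cell, 59.5%, 60.3% and 52.6% of ENR stem cells, 57.6% and 49.2% of -VE stem cells, and 77.5%, 77.5% and 64.4% of Hyper stem cells held an Lgr5 UMI. Every Hyper share lay above every other share. Over all kept cells Lgr5 was higher in Hyper- than in ENR-organoids by 1.30 log2 units (SE 0.14, adjusted p = 0.000138, edgeR quasi-likelihood test with Benjamini-Hochberg adjustment over all genes tested), and in stem cells alone by 0.44 (SE 0.12, adjusted p = 0.0150), which missed the 2-fold limit set for a call.

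In ENR- and -VE-organoids nearly all stem cells held Olfm4 with or without Lgr5, which leaves these shares little room to differ. Olfm4 was detected in 98.9%, 97.9% and 95.8% of Lgr5-positive ENR stem cells, 97.1% and 90.9% of the -VE ones, and 75.3%, 8.48% and 10.97% of the Hyper ones. In Lgr5-negative stem cells the shares were 94.5%, 96.0% and 97.2%, then 93.6% and 89.6%, and 73.3%, 5.17% and 9.93%. The 2 kinds of cell had overlapping 95% intervals in every library, and in Hyper-organoids 2 and 3 the share was low in both.

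The mean number of Olfm4 UMIs per thinned cell separated them more. It was 43.4 in Lgr5-positive and 32.6 in Lgr5-negative stem cells of ENR-organoids 1, 52.1 and 36.2 in ENR-organoids 2, and 35.8 and 25.1 in ENR-organoids 3. In -VE-organoids it was 26.6 and 21.5 in the first library and 19.2 and 17.0 in the second. Hyper-organoids 1 went the other way, with 6.18 in Lgr5-positive and 6.80 in Lgr5-negative cells, and the other Hyper libraries had 0.259 and 0.116, and 0.444 and 0.235.

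In TA cells, Olfm4 was found more often with Lgr5 in all ENR- and -VE-organoids, for example in 93.5% of Lgr5-positive and 84.3% of Lgr5-negative cells of ENR-organoids 3 and in 91.2% and 78.6% of those of -VE-organoids 2. In Hyper TA cells the shares were 81.0% and 79.6%, 10.2% and 8.68%, and 11.95% and 15.04%, with overlapping intervals.

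**Figure D3:**
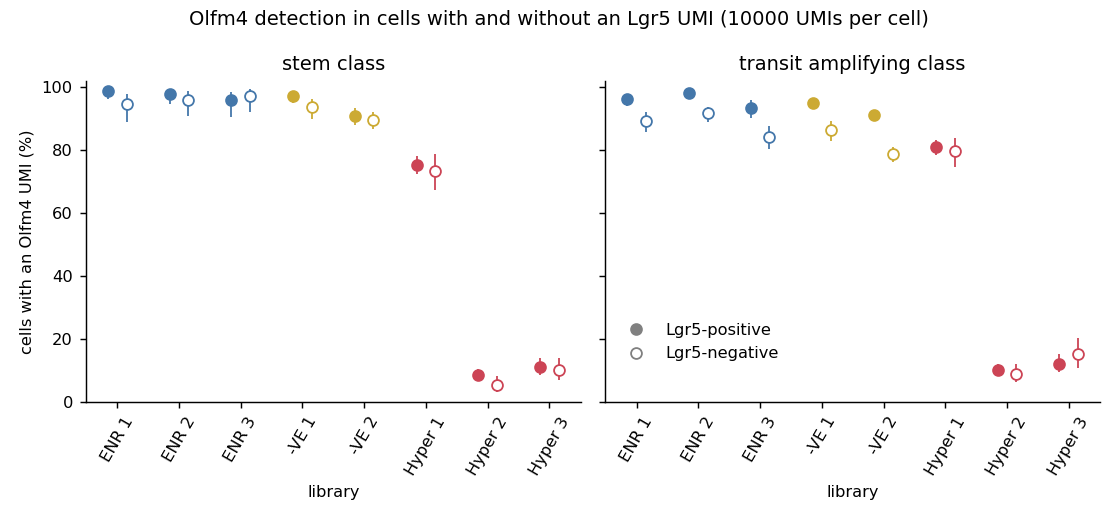
Share of cells with an Olfm4 UMI among Lgr5-positive (filled) and Lgr5-negative (open) stem and TA cells of each library, all cells thinned to 10000 UMIs. Bars are Clopper-Pearson 95% intervals. Open points are cells without an Lgr5 UMI at that depth, which may still express Lgr5. Lgr5-positive stem cells of Hyper-organoids 2 and 3 held Olfm4 in 8.48% and 10.97% of cells.

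Over all kept cells, no gene of a crypt base stem cell list was called lower in Hyper-organoids. The list of 21 genes, without Olfm4, was tested in one edgeR fit over the 8 organoid libraries. A gene was called at an adjusted p under 0.05 and at least 2-fold, and for Hyper against ENR this held for 22.9% of 16037 genes tested, 18.2% higher and 4.75% lower. Of the 21 genes, 8 were called higher and 0 lower, also with DESeq2, with a list median of 0.75 log2 units against -0.01 over all genes tested. At any size 16 passed the adjusted p higher and 1 lower, Aqp4 (-0.61, adjusted p = 0.0297), where 29.5% and 27.3% of all genes did.

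The 8 genes were Lgr5, Smoc2, Sp5, Tnfrsf19, Cd44, Msi1, Gkn3 and Igfbp4. Sp5, a transcription factor induced by Wnt signalling, rose by 2.04 log2 units, Igfbp4, which encodes an insulin-like growth factor binding protein, by 3.02, and Tnfrsf19, which encodes a receptor of the tumour necrosis factor family, by 5.96. Ascl2, a transcription factor that specifies the crypt base stem cell, differed by -0.10 (adjusted p = 0.656), and by -0.38 (adjusted p = 0.00956) without Hyper-organoids 1. Hyper- and ENR-organoids differ in the share of stem cells, so the same list was tested in stem cells alone.

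In stem cells alone, 18.0% of 13920 genes were called for Hyper against ENR, 15.2% higher and 2.8% lower, and 3 of the 21 genes were called higher (Sp5, Tnfrsf19 and Igfbp4) and 0 lower. Without Hyper-organoids 1, Sp5 came to 0.91 log2 units, under 2-fold. At any size, 10 of the 21 passed the adjusted p higher and 3 lower (over all genes, 26.1% and 23.4%). The 3 lower genes were Ascl2, Rgmb, which encodes a BMP co-receptor, and Aqp4, which encodes a water channel.

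Ascl2 held 44.4, 56.9 and 44.6 CPM in ENR stem cells, 46.3 and 39.7 CPM in -VE stem cells, and 38.5, 23.9 and 23.6 CPM in Hyper stem cells. It fell by 0.81 log2 units against ENR-organoids (SE 0.19, adjusted p = 0.00684), and by 1.05 (adjusted p = 6.44e-05), past 2-fold, without Hyper-organoids 1. Rgmb held 89.3, 98.3 and 82.2 CPM, then 78.5 and 72.4 CPM, and 71.3, 37.3 and 35.6 CPM, and fell by 0.94 log2 units (SE 0.23, adjusted p = 0.00826), or by 1.32 (adjusted p = 2.23e-06) without Hyper-organoids 1. In both genes, Hyper-organoids 2 and 3 lay below Hyper-organoids 1, and no Hyper value overlapped the ENR or -VE values.

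Against -VE-organoids, 18.6% of all genes were called over all kept cells (16.1% higher and 2.51% lower) and 2 of 21 list members were higher, Sp5 and Tnfrsf19, although Sp5 came to 0.84 log2 units, under 2-fold, without Hyper-organoids 1. In stem cells 16.5% were called (14.7% higher and 1.76% lower), and 1 member, Tnfrsf19, was higher. Between -VE- and ENR-organoids, where 2.55% of genes were called (1.35% higher and 1.2% lower), Sp5, Tnfrsf19 and Igfbp4 were higher over all kept cells. Sp5 stood at 0.97 log2 units there, just under 2-fold, once the replicate block of culture series was added. In stem cells alone, where 0.503% were called (0.23% higher and 0.273% lower), the only list member called was Igfbp4 (1.51, adjusted p = 0.00740), and DESeq2 called 0 of the 21. These comparisons share their ENR, -VE or Hyper libraries and are not independent.

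The Notch pathway acts between neighbouring crypt cells: ligands such as Dll1 and Dll4 on secretory cells activate receptors on stem cells, which keep Hes1 on and Atoh1, the driver of secretory fate, off. Of 18 Notch genes tested over all kept cells, 2 were called higher and 0 lower in Hyper- against ENR-organoids (18.2% and 4.75% of all genes), with a median of -0.10 log2 units. The 2 were the target genes Hes5 (2.18, SE 0.47, adjusted p = 0.00439) and Hey1 (1.35, SE 0.41, adjusted p = 0.0207), both under 2 CPM in every library, and Hey1 was not called without Hyper-organoids 1 (0.85, adjusted p = 0.0605). At any size 5 were higher and 4 lower, against 29.5% and 27.3% of all genes.

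Hes1 held 138.5, 123.0 and 114.6 CPM in ENR stem cells, 125.9 and 111.1 CPM in -VE stem cells, and 188.3, 154.6 and 236.3 CPM in Hyper stem cells. The Hyper values lay above all others, by 0.58 log2 units against ENR-organoids (SE 0.14, adjusted p = 0.00794) and 0.67 against -VE-organoids (SE 0.16, adjusted p = 0.00749). The ligand gene Dll1 went down, by 0.76 log2 units in stem cells (adjusted p = 0.0172, and 1.01 without Hyper-organoids 1), and so did Nrarp, a target gene that encodes a Notch feedback inhibitor, by 0.56 (adjusted p = 0.00638). Atoh1 was near 0 in stem cells and differed over all kept cells by -0.23 against ENR-organoids (adjusted p = 0.401). Against -VE-organoids it differed by -0.87 (adjusted p = 0.0189). Blocking on the culture series as replicate gave -1.09 (adjusted p = 0.000371), past 2-fold. Against -VE-organoids 2 of the 18 genes were called higher and 0 lower (16.1% and 2.51% of all genes), and between -VE- and ENR-organoids 0 passed the adjusted p of edgeR at any size, where 7.88% of all genes did. At an unadjusted p, 3 of the 18 were higher and 1 lower, and DESeq2 gave 1 higher past its adjusted p.

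The NF-kB list held subunits, inhibitors and target genes. Of 15 genes, 2 were called higher and 0 lower in Hyper- against ENR-organoids, where 18.2% and 4.75% of all genes were, with a median of -0.25 log2 units. Both were target genes, Icam1, an adhesion molecule (4.83, SE 0.29, adjusted p = 6.99e-06), and Cxcl1, a neutrophil chemokine (1.41, SE 0.29, adjusted p = 0.00365). The same 2 genes were called against -VE-organoids (3.64 and 1.31, with 16.1% of all genes called higher) and in stem cells alone (4.00 and 1.93 against ENR-organoids, with 15.2%).

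Genes of 2 subunits stood lower at sizes under 2-fold. Relb fell by 0.86 log2 units (SE 0.09, adjusted p = 8.14e-05) and Nfkb1 by 0.48 (SE 0.08, adjusted p = 0.00164). In all, 7 of the 15 genes passed the adjusted p lower and 3 higher, against 27.3% and 29.5% of all genes. Between -VE- and ENR-organoids 0 of the 15 were called, and 2 passed the adjusted p lower (3.62% of all genes). At an unadjusted p, 3 were higher and 3 lower, and DESeq2 called 1 higher.

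Among the other genes with an olfactomedin domain, none was called lower. Of 9 genes, 6 passed the filter on low counts, and 3 of these were called higher in Hyper- against ENR-organoids, Olfm1, Olfml1 and Olfml2b, where 18.2% of all genes were. Olfml2b held 0.012 to 0.058 CPM in ENR-organoids and 0.114 to 0.313 CPM in Hyper-organoids, and Olfml1 is given below. Both passed the filter only through the Hyper libraries, so they could only be called higher. Olfm1 held 2.44, 2.59 and 1.80 CPM over all kept cells of ENR-organoids, 3.12 and 2.08 CPM in -VE-organoids, and 9.54, 7.28 and 7.44 CPM in Hyper-organoids. It rose by 1.82 log2 units against ENR-organoids (SE 0.21, adjusted p = 0.000174), and the Hyper values did not overlap the others.

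Olfml1 was at 0 in all 3 ENR-organoids and held 0.272, 0.633 and 0.335 CPM in Hyper-organoids. Against a floor of 3 counts per library, that is at least 13.9-fold higher. The median of the 6 genes was 1.502 log2 units, also with Olfml1 at this bound. It includes Olfml1 and Olfml2b, which could only rise. Against -VE-organoids 4 were called higher (16.1% of all genes), the same 3 and Olfml2a, which was not called without Hyper-organoids 1 (adjusted p = 0.0957), and DESeq2 called 3.

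Markers of other states moved in both directions in the Hyper stem cells. Against ENR stem cells, 3 of 4 enterocyte progenitor markers were called lower (Cfhr2, Rbp7 and Dmbt1, with a list median of -2.13 log2 units), as were 2 of 4 Paneth markers (Lyz1 and Defa30, whose reads may be split with close paralogs, while Mmp7 was called higher), 1 of 4 enterocyte and 1 of 4 goblet markers, and the TA marker Top2a (-1.16, adjusted p = 6.46e-05), where 2.8% of all genes were. The enterocyte list had a median of -0.037 log2 units, and the enterocyte marker Fabp1 (1.499, adjusted p = 0.0753) and the goblet marker Agr2 (0.99, adjusted p = 0.00799), not called with all libraries, were called higher without Hyper-organoids 1 (1.97, adjusted p = 0.00578, and 1.30, adjusted p = 5.86e-06). The 4 revival stem cell markers Clu, Anxa1, Ly6a and Basp1 summed to 1.14 to 1.65 CPM in ENR stem cells, 4.39 to 9.91 CPM in -VE stem cells and 31.4, 78.5 and 125.5 CPM in Hyper stem cells, and all 4 were called higher in Hyper against ENR stem cells, where 15.2% of all genes were. The summed markers of stroma (Col1a1, Col3a1, Pdgfra and Vim) were 0.137 to 0.386 CPM, then 0.189 to 0.366 CPM, and 92.8, 21.8 and 15.1 CPM, nearly all of it Vim, with Col3a1 at 0 in every library. The 4 leukocyte markers summed to at most 1.17 CPM in any library, with Ptprc at 0 in all. Basp1 reached at most 0.077 CPM in ENR and 0.027 CPM in -VE stem cells. It entered the stem cell test only through the Hyper libraries and could only be called higher. The part of these markers in the Olfm4 result was not tested.

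Genes whose level followed Olfm4 across the 8 libraries were ranked by Pearson's r of log2(CPM + 1) over all kept cells, among 7771 genes of mean level 10 CPM or more. The 10 nearest were 1700097N02Rik (r = 0.994), Ezh2 (0.993), Aqp4 (0.988), Zfp703 (0.986), Pkp1 (0.978), Nmnat3, Dhrs7b, Gstm6, Aldh1a7 and Erfe (0.963). The median r over all 7771 genes was 0.49, and the libraries share culture series, so these values are a description.

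Ezh2, which encodes the methyltransferase that EPZ6438 inhibits, held 115.6, 113.8 and 111.7 CPM in ENR-organoids, 115.6 and 113.8 CPM in -VE-organoids, and 110.0, 100.3 and 101.1 CPM in Hyper-organoids. 1700097N02Rik, with 25.3, 26.5, 23.6, 23.7 and 21.8 CPM in the ENR- and -VE-organoids and 15.2, 4.00 and 4.26 CPM in Hyper-organoids, had the same order of Hyper replicates as Olfm4. Aqp4 held 84.1 to 96.5 CPM outside Hyper-organoids and 76.9, 41.2 and 48.3 CPM within. Only 2 of the 10 genes were also among the 10 nearest by Spearman's rho, and 2 when stem cells alone were used.

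To see what else differed between stem cells high and low in Olfm4, the stem cells of each library were split at the library's median Olfm4 share of UMIs, and the UMIs of every cell, Olfm4 left out, were thinned to 10000. This was done in the 6 libraries in which the median stem cell held at least 1 Olfm4 UMI per 10000 (all ENR- and -VE-organoids and Hyper-organoids 1), giving 1832 Olfm4-high and 1812 Olfm4-low cells. Olfm4-high cells held 3.59- to 10.1-fold more Olfm4, by construction. Median depth and mitochondrial share were close in both sets, with 38001 against 42655 UMIs and 8.19% against 8.24% in ENR-organoids 1, the library with the widest gap in depth. The Y-linked Ddx3y was higher in Olfm4-high cells by 0.75 log2 units (adjusted p = 0.0170), in all 5 libraries that held it, while Eif2s3y differed by 0.38 (adjusted p = 0.211) and Xist by 0.035 (adjusted p = 0.852). With the library as block, 69 of 9409 genes were called (0.733%), 13 higher (0.138%) and 56 lower (0.595%) in Olfm4-high cells, and 61 of the 69 had the same direction in every library. The 2 sets come from the same libraries and the split follows a gene measured in the same cells, so a call says that a gene varies with Olfm4 from cell to cell.

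Of 4 enterocyte markers tested, 3 were called lower in Olfm4-high stem cells (Fabp1, Alpi and Rbp2), and Apoa1 differed by 0.13 (adjusted p = 0.758). Fabp1, which encodes a fatty acid binding protein of enterocytes, held 17.4, 20.3 and 18.6 CPM in Olfm4-high and 40.6, 56.7 and 63.5 CPM in Olfm4-low cells of ENR-organoids, 8.18 and 28.9 against 66.9 and 187.3 CPM in -VE-organoids, and 5.70 against 55.8 CPM in Hyper-organoids 1. It was lower in Olfm4-high cells of all 6 libraries and fell by 2.51 log2 units (SE 0.17, adjusted p = 9.74e-09). Alpi, which encodes intestinal alkaline phosphatase, fell by 3.04 (SE 0.32, adjusted p = 2.69e-06).

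The glutathione S-transferase genes Gsta1, Gsta2 and Gm3776 fell by 2.68, 2.17 and 2.97 log2 units. Their sequences are close, so reads may be split between them. S100a6, a calcium-binding protein gene, fell by 2.07, the actin-capping gene Capg by 2.04, 2610528A11Rik by 1.94, the stress-induced Nupr1 by 1.93 and the differentiation-associated Ndrg1 by 1.81. Of 3 enterocyte progenitor markers 2 were called lower (Dmbt1 by 1.65, and Rbp7), while Pycard differed by -0.15 (adjusted p = 0.0877). Of 3 goblet markers 2 were called lower (Tff3 by 1.42, and Fcgbp). The third, Agr2, differed by 0.17 (adjusted p = 0.164) and was higher in 5 of 6 libraries. The 4 TA markers (Top2a, Hmgb2, Tubb5 and Mki67) did not pass the adjusted p of edgeR or DESeq2, and 0 of the 4 had an unadjusted p under 0.05. The 2 Paneth markers tested went the other way, at under 2-fold. Defa30 was higher by 0.88 (adjusted p = 0.00145) in 6 of 6 libraries, where 2.73% of all genes passed higher. Lyz1 differed by 0.37 (adjusted p = 0.157).

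Genes higher in Olfm4-high cells were fewer and their folds smaller. Gkn3, a gastrokine gene found in crypt base stem cells, held 103.7, 120.9 and 146.9 CPM in Olfm4-high and 23.2, 31.2 and 42.6 CPM in Olfm4-low cells of ENR-organoids, 117.3 and 167.8 against 43.7 and 60.2 CPM in -VE-organoids, and 50.8 against 35.6 CPM in Hyper-organoids 1. It was higher by 1.41 log2 units (SE 0.13, adjusted p = 8.62e-07). Pcdh8, a protocadherin gene, was higher by 1.83 (SE 0.23, adjusted p = 3.73e-05).

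The others with the same direction in every library were Agr3 (1.21), Nab2 (1.20), Nr2e3 (1.17), Clca3a2 (1.17), Mia (1.13), Mylk3 (1.06) and Pthlh (1.03). For Agr3 the difference in Hyper-organoids 1 was 0.02 on the log2(CPM + 1) scale, against 0.90 to 2.85 in the other libraries. Mylk3 was not called by DESeq2 (adjusted p = 0.126), and Clca3a2, Mylk3 and Pthlh came to under 2-fold with 20000 UMIs per cell.

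Most members of the crypt base stem cell list were higher in Olfm4-high cells, at sizes mostly under 2-fold. Of 20 members tested, Gkn3 alone was called, but 14 passed the adjusted p higher and 0 lower, where 2.73% of all genes passed higher and 5.18% lower. The 14 include Lgr5, whose tie to Olfm4 was part of the choice of the gene. The list median was 0.38 log2 units. By library, 17 to 20 of the 20 were higher in each ENR- and -VE-organoid library, but 10 were higher and 10 lower in Hyper-organoids 1. Msi1, which encodes an RNA-binding protein, was higher by 0.74, Rgmb by 0.63, Sox9, a transcription factor of crypt progenitors, by 0.53, the Wnt target Axin2 by 0.52 and Cdca7 by 0.49, each in 6 of 6 libraries.

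Lgr5, given here as a description, was higher by 0.42 (SE 0.12) in 5 of 6 libraries. It held 147.8 against 76.1 CPM in ENR-organoids 1 and, the other way, 149.4 against 173.2 CPM in Hyper-organoids 1. Ascl2 was higher by 0.37 (SE 0.09, adjusted p = 0.0163), also in 5 of 6. Of 12 Notch genes tested only Notch1 passed the adjusted p (0.43, SE 0.12, adjusted p = 0.0299), and Hes1 just missed it (0.23, SE 0.07, adjusted p = 0.0503). Of 12 NF-kB genes 0 passed with edgeR or DESeq2, and 2 were lower at an unadjusted p.

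Hyper-organoids 2 and 3 could not enter that split, since their median stem cell had no Olfm4. After the data were seen, a second split was added for the Hyper-organoids alone: stem cells with 3 or more Olfm4 UMIs among 10000 against those with 0. It held 645 against 277 cells in Hyper-organoids 1, 37 against 1346 in 2 and 36 against 758 in 3. With the library as block, 58 of 11120 genes were called (0.522%), 9 higher (0.0809%) and 49 lower (0.441%) in the Olfm4-positive cells. Hyper-organoids 1 held most of the positive cells, and without them 12 genes were called, of which 10 were among the 58. With DESeq2 in place of edgeR 18 genes were called, 17 of them among the 58, and without the block 10 were called.

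Of 4 enterocyte markers 2 were called lower, Fabp1 and Alpi, while Rbp2 differed by -0.70 (adjusted p = 0.221) and Apoa1 by 0.06 (adjusted p = 0.994). Of 3 enterocyte progenitor markers 1 was called lower, Dmbt1, while Rbp7 differed by 0.66 and Pycard by 0.029. Fabp1 held 6.20 against 104.0 CPM, 2.70 against 65.7 CPM and 2.78 against 190.6 CPM in Hyper-organoids 1, 2 and 3, and fell by 4.21 log2 units (SE 0.18, adjusted p = 3.02e-18). Alpi fell by 5.17, Gm3776 fell by 4.33, Gsta1 fell by 2.66 and Dmbt1 fell by 2.46, each lower in all 3 libraries. Without Hyper-organoids 1, Alpi (adjusted p = 0.627) and Gm3776 (adjusted p = 0.252) were not called.

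A few markers of other classes were also lower in the Olfm4-positive cells, while TA markers went the other way. Of 3 goblet markers 1 was called lower, Tff3 (-1.38, adjusted p = 2.27e-06), as was Vim, the 1 stroma marker tested, with 50.7 against 229.2 CPM, 13.5 against 21.2 CPM and 2.78 against 17.4 CPM (-2.15, adjusted p = 2.19e-13). Without Hyper-organoids 1, neither was called (adjusted p = 0.0758 for Tff3 and 0.700 for Vim). The goblet markers Agr2 (-0.10, adjusted p = 0.758) and Fcgbp (-0.50, adjusted p = 0.826) did not pass. All 4 TA markers had positive differences, with a median of 0.26 log2 units. Of these, 1 passed the adjusted p, Hmgb2 (0.38, adjusted p = 1.97e-05), where 0.629% of all genes passed higher.

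Of the 4 revival stem cell markers 3 were called lower. Ly6a, which encodes the surface protein Sca-1, held 2.33 against 35.0 CPM, 2.70 against 26.4 CPM and 5.56 against 75.7 CPM and fell by 3.86 log2 units (SE 0.28, adjusted p = 2.91e-12). Clu, which encodes the chaperone clusterin, fell by 1.85 (SE 0.30, adjusted p = 9.90e-05) and Anxa1 by 1.27 (SE 0.30, adjusted p = 0.0142), and Basp1 differed by -0.65 (adjusted p = 0.745). The surface protein gene Ly6c1 fell by 4.21, the homeobox gene Esx1 by 3.70, the interferon-induced Ifitm1 by 3.41 and the matrix metalloproteinase gene Mmp7 by 2.63. In Hyper-organoids 2 and 3, Ly6c1 held 0 against 2.30 and 3.83 CPM, and Esx1 0 against 3.34 and 2.24 CPM. At such levels few UMIs are expected in 37 and 36 Olfm4-positive cells, so these falls rest mainly on Hyper-organoids 1. The Mmp7 difference came from Hyper-organoids 1, with 4.19 against 29.2 CPM there, 5.41 against 6.84 CPM in Hyper-organoids 2 and 2.78 against 4.88 CPM in Hyper-organoids 3. Without Hyper-organoids 1, Mmp7 stood at -0.53 (adjusted p = 0.914), and Clu (adjusted p = 0.255), Anxa1 (0.700) and Ifitm1 (0.0658) were not called either.

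Of the genes higher in Olfm4-positive Hyper stem cells, Pcdh8 stood out with 19.7 against 2.17 CPM, 16.2 against 1.11 CPM and 22.2 against 0.132 CPM (4.13, SE 0.47, adjusted p = 1.65e-07). Gkn3 was higher by 1.06 (SE 0.13, adjusted p = 5.46e-07) and Nr2e3 by 1.10, and Pcdh8, Gkn3 and Nr2e3 were called in both splits, which share Hyper-organoids 1. Clca4b (1.84), Fjx1 (1.29), Zfp697 (1.11), Mad1l1 (1.10) and Nrarp (1.08, SE 0.29, adjusted p = 0.0379) were also called higher. Of these genes, DESeq2 called Pcdh8 and Gkn3 only, as did edgeR without Hyper-organoids 1. Nrarp was higher in the Olfm4-positive stem cells of all 3 Hyper-organoids, with 10.9 against 4.69 CPM, 21.6 against 10.3 CPM and 22.2 against 11.5 CPM. In Hyper-organoids 2 and 3 these values rest on few UMIs, from 37 and 36 Olfm4-positive cells. Nrarp was the only 1 of 12 Notch genes tested to pass the adjusted p. Of the 12, 4 had positive differences, with a median of -0.10 log2 units.

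The ninth gene called higher was the Y-linked Eif2s3y (1.12, adjusted p = 0.0263), and Xist was lower by 0.45 (adjusted p = 0.000334), so the sets differed in their mix of cells with Y-linked and with Xist transcripts. In Hyper-organoids 2, 17 of 37 Olfm4-positive and 994 of 1346 Olfm4-negative cells had no Y-linked UMI, and in Hyper-organoids 1 these were 408 of 645 and 221 of 277. In cells without a Y-linked UMI, Pcdh8, Gkn3, Nr2e3, Fjx1 and Mad1l1 were still called higher, while Clca4b (adjusted p = 0.342), Zfp697 (0.533) and Nrarp (0.198) were not, nor was Anxa1 called lower (0.103).

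Of the 21 crypt base stem cell genes 2 passed the adjusted p higher, Gkn3 and Cdca7 (0.37, adjusted p = 0.00192), and 0 lower, where 0.629% of all genes passed higher. The list median was 0.081 log2 units. DESeq2 passed 1 of them higher, and at an unadjusted p 5 were higher and 2 lower. Lgr5, again as a description, differed by 0.00 (SE 0.09), with 154.7 against 171.5 CPM, 210.8 against 167.8 CPM and 150.0 against 129.9 CPM. Nfkbia, which encodes an NF-kB inhibitor, was the only NF-kB gene past the adjusted p, at -0.46 (SE 0.11, adjusted p = 0.0163), where 1.39% of all genes passed lower. DESeq2 passed 0 of the 15 genes.

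**Figure D4:**
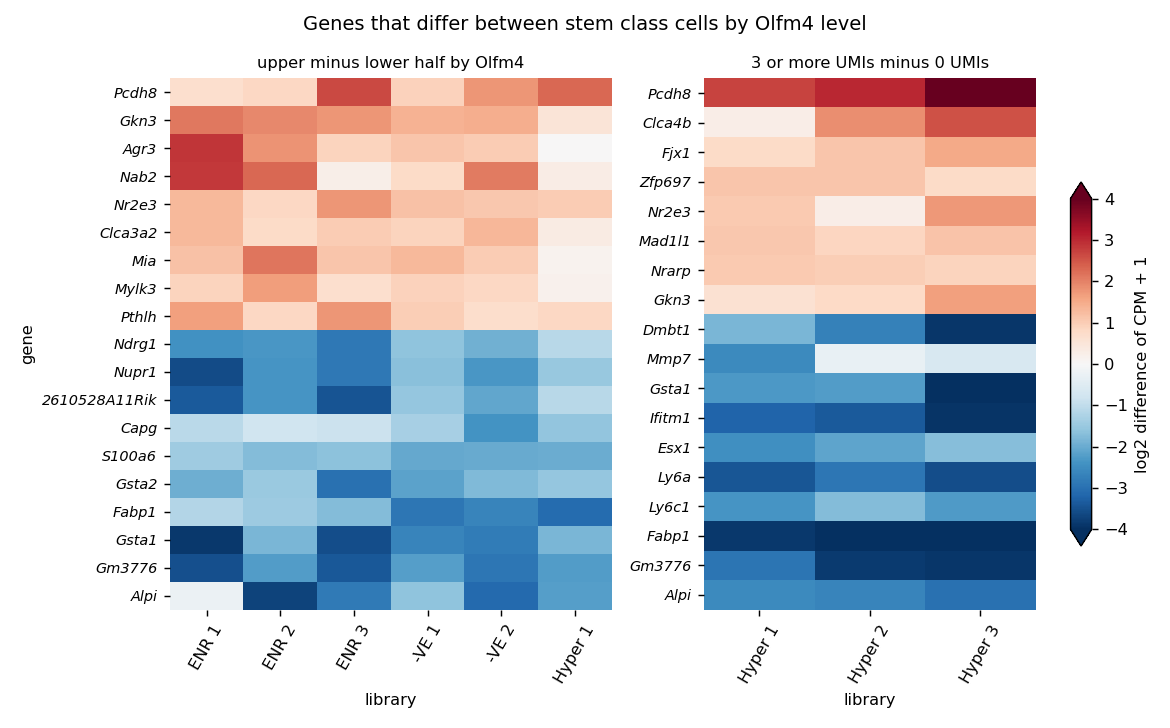
Differences of log2(CPM + 1) per library for the named genes, Olfm4-high minus Olfm4-low stem cells (left, 6 libraries) and Hyper stem cells with 3 or more minus 0 Olfm4 UMIs (right, 3 libraries). Red is higher and blue lower with Olfm4, with colours saturating at 4 log2 units. Fabp1, Gsta1 and Alpi are lower and Pcdh8, Gkn3 and Nr2e3 higher in every column of both panels.

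Cells with Y-linked transcripts tended to hold more Olfm4 than cells with Xist in the same library. Cells of replicates 1 and 2 were grouped by UMIs of 4 Y-linked genes (Ddx3y, Eif2s3y, Uty and Kdm5d) and of Xist, the RNA of the inactive X chromosome. Of the stem cells, 21.2% to 28.7% held only Y-linked and 4.52% to 7.76% both kinds of transcript, and the latter may include droplets with more than 1 cell, since no doublet caller was run. In ENR-organoids 1 and 2, Olfm4 stood at 4661 and 4472 CPM in Y-only and 3396 and 4382 CPM in Xist-only stem cells. In -VE-organoids the values were 3081 and 1765 against 2252 and 1785 CPM.

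In Hyper-organoids 1 they were 914 against 515 CPM, and in Hyper-organoids 2 they were 43.2 against 10.97 CPM. Y-only cells were higher in 5 of 6 libraries among stem cells (-0.02 to 1.88 log2 units, median 0.45) and in 6 of 6 among TA cells (0.14 to 1.29, median 0.32). Hyper-organoids 3, which had no Y-only cell, held 36.8 CPM in Xist-only stem cells. The labels do not say which animals were used, so sex and animal cannot be told apart, and these values come from 6 libraries of 2 series.

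**Figure D5:**
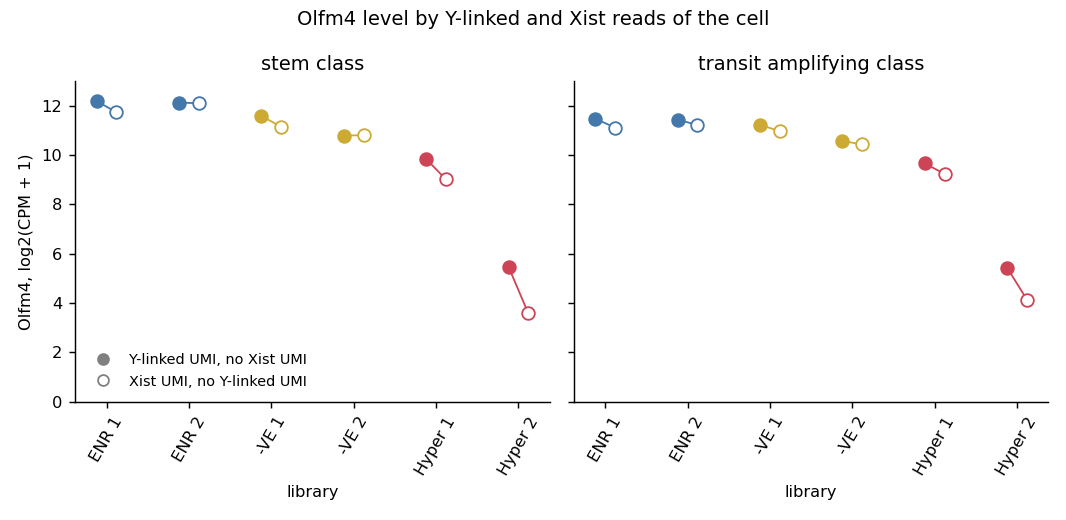
Olfm4 level on a log2(CPM + 1) axis in cells with Y-linked but no Xist UMIs (filled) and with Xist but no Y-linked UMIs (open), joined by a line within each library of replicates 1 and 2, for stem (left) and TA (right) cells. The filled point is the higher in 5 of 6 libraries on the left and 6 of 6 on the right.

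In colonic crypts Olfm4 was seen in very few cells. The library of normal colonic crypts held 0 Olfm4 UMIs in 1132 cells and 19906845 UMIs (exact Poisson 95% interval 0 to 0.185 CPM). The DSS library held 31 Olfm4 UMIs in 5 of 1933 cells (0.957 CPM, exact Poisson 95% interval 0.650 to 1.36 CPM). With 1 library per group there is no test between them.

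Of the 31 UMIs, 26 came from 1 cell of cluster 15 of the authors' clusters. That cell held UMIs of 11 of 11 neutrophil markers, including 363 of Ngp, 58 of Camp and 4 of Ltf, genes of neutrophil granules, and of none of 4 epithelial markers. A second cell of the cluster held 1 Olfm4 UMI with 7 of 11 neutrophil markers and 1 of the 4 epithelial ones. The other 3 cells, with 2, 1 and 1 Olfm4 UMIs, held all 4 epithelial markers (Epcam, Krt8, Krt18 and Cdh1) and no Ltf, Camp or Ngp.

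Olfm4 was thus found in 2 of the 129 DSS cells with 3 or more neutrophil markers, and in 3 of 1804 other cells, which held 0.128 CPM (0.0350 to 0.329 CPM). Of the 129 cells, 66 belonged to cluster 15, which held both of the Olfm4-positive ones. Among the DSS cells 26 held UMIs of Ltf, Camp and Ngp together, and the normal library had no cell with 3 or more neutrophil markers. The cluster named stem in the authors' annotation (cluster 2) held 0 Olfm4 UMIs in 102 normal and 168 DSS cells, of which 18.6% and 21.4% held Lgr5.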

How the data were processed

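The authors aligned the reads to mm10 and deposited UMI counts per gene and cell (10x 3′ libraries, Cell Ranger 3.0.0 and Seurat 3.1.4 per the processing notes) together with a table of kept cells and their classes. Counts in the deposited table and matrices were checked over 23775 genes and 25204 kept cells of organoids and colon, with 0 differences. The study's methods state a minimum of 1500 genes per cell, but kept cells went down to 501 genes. Doublets were not removed. The kept cells of a library held 19906845 to 170019527 UMIs. No column was left unmapped.

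UMIs were summed per library, over all kept cells or over stem cells, and the 8 organoid libraries were fitted together (edgeR 4.0.16, R 4.3.3, TMM scaling, filterByExpr, quasi-likelihood test, Benjamini-Hochberg adjustment). DESeq2 1.42.0 was an alternative. Thinning, intervals and floors used Python 3.11.15. On simulated counts, 199 of 200 changed genes were recovered between groups (5 unchanged genes called) and 200 of 200 between Olfm4-high and Olfm4-low stem cells (1 unchanged gene called). The share of genes recovered or wrongly called in the real libraries was not tested. In the group fits, p-values measure the spread between cultures. In the splits by Olfm4, with the library as block, they measure the spread of the within-library difference between libraries.

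Olfm4 and the gene lists were chosen with earlier results of these data known. Named genes were members of those lists (Lgr5, Ascl2, Hes1 and Atoh1 always), the 10 largest called rises and falls with the same direction in every library, and the 10 genes nearest to Olfm4 by Pearson's r. The replicate numbers were read as culture series. Deviations from the group mean correlated over 16037 genes between same-numbered ENR- and Hyper-organoids (r = 0.192, 0.170 and 0.436), ENR- and -VE-organoids (0.161 and 0.062) and -VE- and Hyper-organoids (0.139 and 0.115). Differently numbered pairs ranged from -0.292 to 0.129, and ENR-organoids 3 with -VE-organoids 2 (0.083) stood above the same-numbered 0.062. The deviations of the -VE libraries mirror each other by construction, so with so few libraries this check cannot settle the series.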

Additional observations from a re-analysis of the deposited data

Results flagged for a closer look

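Cell barcodes that were in the matrices but not among the kept cells were used in no comparison. In -VE-organoids they held 744 CPM of Olfm4 in replicate 1 and 401 CPM in replicate 2, above the 325, 211 and 127 CPM of the left-out barcodes of ENR-organoids 1, 2 and 3, the control culture. The left-out barcodes of Hyper-organoids held 194, 5.40 and 5.49 CPM, below the 610 CPM, 21.2 CPM and 35.7 CPM of their kept cells, and those of both colonic libraries held 0 Olfm4 UMIs. These barcodes had a median of 3424 to 5706 UMIs, far fewer than the kept cells. The difference was not tested.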

How the results depend on the processing

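The cause of each change below was not tested. Genes called between -VE- and ENR-organoids (409) ranged from 96 to 519 with 1 library left out, with 96 without -VE-organoids 2 and 151 without ENR-organoids 2. The 69 genes of the Olfm4-high and Olfm4-low stem cells became 121 with no filter on low counts and 104 with the outer terciles of cells, and the 58 genes of the Hyper split became 18 with DESeq2 and 12 to 62 with 1 library left out (12 without Hyper-organoids 1). That split, and the use of cells without a Y-linked UMI (54 and 45 genes in the 2 splits), were chosen after seeing the data.

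With the culture series as replicate block, 3780 genes were called between Hyper- and ENR-organoids (3675 without it), 3063 between Hyper- and -VE-organoids (2985) and 439 between -VE- and ENR-organoids (409), and in stem cells 2576 (2509) and 2350 (2296). Olfm4 stood at -4.31, -3.84 and -0.16 log2 units within series, and of the named genes the block changed the calls of Atoh1 and Sp5 given above. With no replicate block, the 2 splits gave 16 and 10 genes.

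The Olfm4 difference between -VE- and ENR-organoids was -0.80 in stem cells only. The mean share of ENR stem cells with Olfm4 (96.9%) was 95.1% at 5000 UMIs, 98.5% at 20000 UMIs, 98.8% not thinned and 93.6% with at least 3 UMIs, and in -VE stem cells (92.9%) it was 96.9% not thinned and 84.7% with at least 3 UMIs. In Hyper stem cells (74.8%, 7.73% and 10.6%) it was 67.6%, 5.35% and 6.95% at 5000 UMIs and 56.2%, 2.94% and 4.24% with at least 3 UMIs. The DSS minus normal difference (0.97 log2 units at a pseudocount of 1 CPM) was 3.40 at 0.1 CPM, 0.18 in cells without a Ptprc UMI and 0.17 in cells with under 3 neutrophil markers.

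Of 1068 alternative values of 107 gene results, 9 changed sign, 104 lost the call with the same sign and 3 gained it. Values for which DESeq2 gave no adjusted p were left out, as it did for 15 of the 58 genes called in the Hyper split. With 1 library left out, Ascl2 between Hyper- and ENR-organoids (-0.10) ranged from -0.38 to 0.020, Atoh1 in stem cells against ENR-organoids (-0.35) from -0.80 to 1.42 and against -VE-organoids (0.016) from -0.41 to 0.31, and in the Hyper split Lgr5 (0.0019) from -0.091 to 0.26 and Hes1 (-0.10) from -0.20 to 0.013. Lgr5 there came to -0.036 in cells without a Y-linked UMI. The split rests on only 37 and 36 Olfm4-positive cells in Hyper-organoids 2 and 3.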
